A study of Rattus norvegicus with 16 samples.

Results

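The transcription factor genes described here are 10 members of the AP-1 and early growth response families: Fos, Fosb, Fosl1, Fosl2, Jun, Junb, Jund, Egr1, Egr2 and Atf3. They were chosen by symbol, as the rows of the expression table that carry these names, and all 10 were found among its 23552 genes. The study sequenced RNA of knee cartilage from rats, 16 libraries in all and 4 for every group. Besides healthy and osteoarthritic cartilage, 2 groups were osteoarthritic and received cells together with a drug, in the HA group along with hyaluronic acid (HA) and in the coacervate group along with a coacervate. A coacervate is a polymer-rich liquid phase that can act as a carrier. All rats were labelled as 10 weeks old. In the library names the healthy libraries appear as Sham and the osteoarthritic ones as PBS, so neither group can be taken as untouched, and every group may share a procedure or an injection that the titles leave out. The labels name neither the drug, the cells, the make-up of the coacervate nor the way osteoarthritis was produced. Nor do they state that replicates came from separate animals, so the p-values measure only the spread between these libraries, which may be technical.

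AP-1 is a dimer of a JUN protein with a FOS, JUN or ATF protein, joined through a leucine zipper, and it binds DNA through the adjoining basic region. Several of its genes, like the zinc-finger gene Egr1, are immediate early genes: serum, cytokines and mechanical load switch them on within minutes through MAP kinases and serum response factor, and their mRNAs decay quickly. In cartilage AP-1 is known for driving collagenase and stromelysin genes after interleukin-1 or mechanical injury. In the deposited table's own pathway annotation, 7 members, the FOS and JUN genes, carry the term osteoclast differentiation (115 tested genes carry it), and Fos, Fosb, Fosl1, Jun and Jund carry IL-17 signalling (64 tested genes).

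Total counts were 36988722 to 50725189 per library. All 10 chondrocyte marker genes had counts in all 16 libraries and took 0.19% to 0.585% of counts, whereas 6 erythroid genes took 9.38% to 19.3%. In bulk RNA, fewer cells of a type and less RNA per cell cannot be told apart. On the first principal component of the 14337 genes tested below, 2 osteoarthritic libraries, replicates 2 and 3, lay far from the other 14 (69.6 and 58.9, against -32.3 to 12.7). They also had the highest erythroid share (19.3% and 18.6%). Coacervate replicate 3 had the highest share of skeletal muscle markers, 1.77% of counts, against 0.268% to 0.878% in the other 15 libraries. The main fold changes that rest on these 3 libraries are given with and without them.

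The order of the genes was set by FPKM, which divides by gene length and by sequencing depth. Averaged over the 16 libraries, Jund was highest at 36.7 ± 5.87 FPKM (SD), followed by Junb at 30.3 ± 7.74. Fos (21.12 ± 12.02) and Egr1 (20.2 ± 11.2) came next, then Jun (14.4 ± 5.15), Fosl2 (9.48 ± 2.37) and Fosb (5.56 ± 8.58). Atf3 (3.92 ± 2.63), Egr2 (1.55 ± 0.587) and Fosl1 (0.806 ± 0.233) were lowest. Between neighbours in this order the means differed by less than the larger SD in every case except Egr2 over Fosl1. Atf3 exceeded Egr2, and Egr2 exceeded Fosl1, in 16 of 16 libraries. Fos exceeded Egr1 in only 10 of 16, and Fosb exceeded Atf3 in 7 of 16. Fosl1 reached an FPKM of 1 in 2 libraries and was the 1 member below the filter for testing (4 or more libraries with an FPKM of 1 or more). The other 9 were among the 14337 genes tested.

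Levels of a single gene are given below in CPM, in which each count is divided by the TMM-corrected total of its library. These values can be compared between libraries but not between genes of different length.

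**Figure D1:**
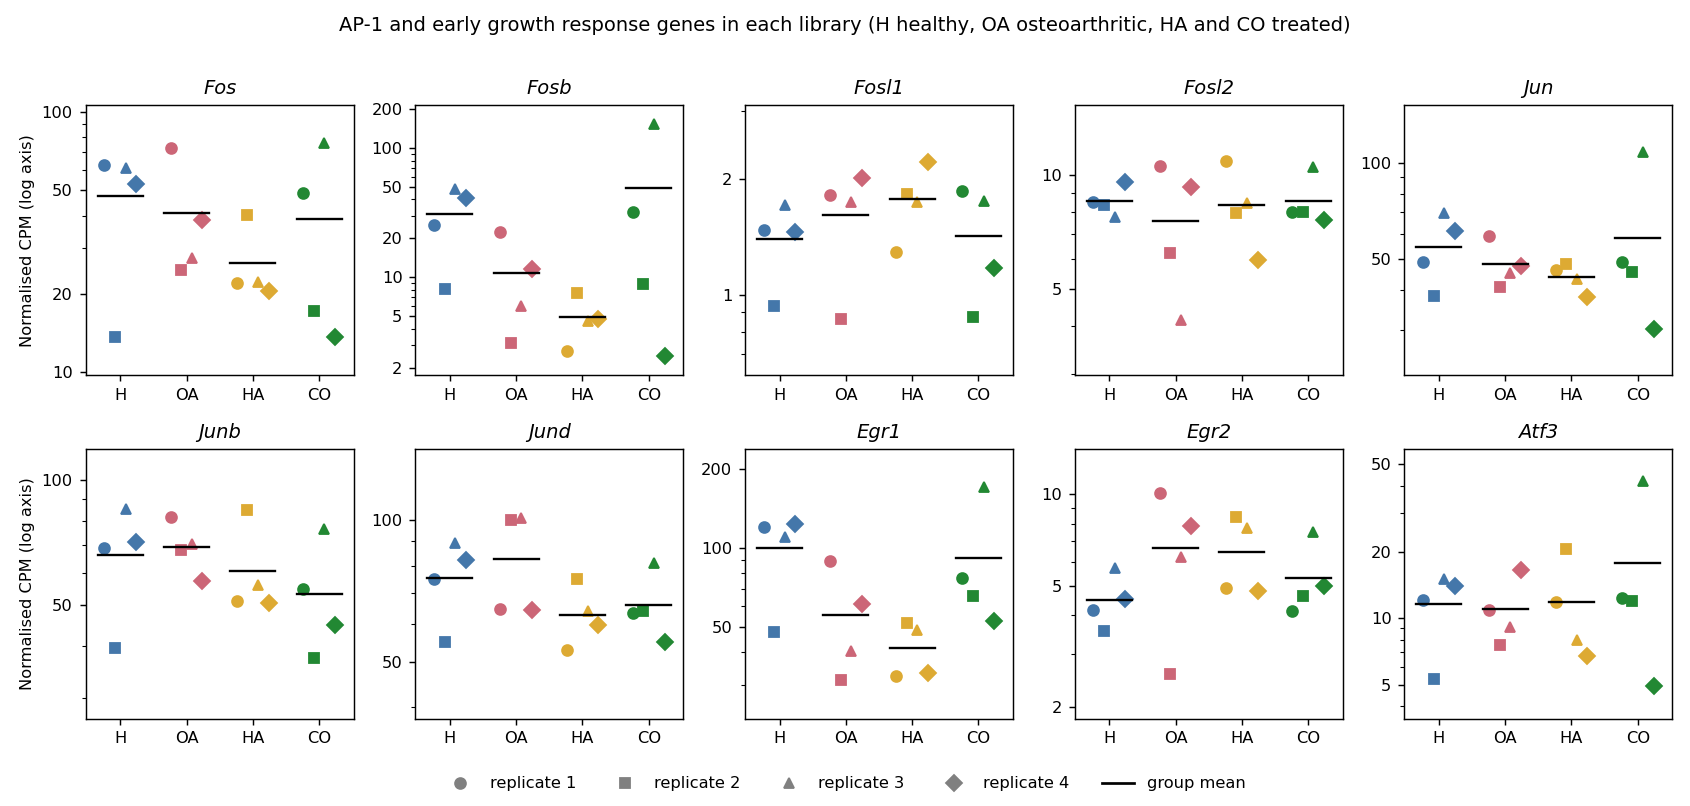
Normalised CPM (log axis) of each of the 10 genes in every library, by group, with replicates 1 to 4 as symbols and the group mean as a bar. Coacervate replicate 3 is the highest of the 16 libraries for Fosb, Jun, Egr1 and Atf3, and for Fos by little over osteoarthritic replicate 1. The 4 HA libraries lie close together for Fosb, between 2.68 and 7.55 CPM.

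Fos encodes the founding FOS subunit and lies in rn6 on chr6:109300433-109303299 (plus strand). In healthy cartilage it was measured at 62.5, 13.7, 61.0 and 53.0 CPM in replicates 1 to 4. In osteoarthritic cartilage it stood at 72.8, 24.8, 27.6 and 38.4 CPM. In each of these groups 1 library lay far from the rest, healthy replicate 2 below and osteoarthritic replicate 1 above. The HA libraries had 22.1, 40.1, 22.3 and 20.6 CPM. The coacervate libraries had 49.0, 17.2, 75.9 and 13.7 CPM. Every group overlapped every other, and the libraries with the lowest and the highest Fos, 13.7 and 75.9 CPM, were both coacervate libraries. Healthy replicate 2 was as low to the digits given, and osteoarthritic replicate 1 was nearly as high. In FPKM the highest Fos value was osteoarthritic, 41.61 against 40.89 for the highest coacervate library. The HA group had the lowest mean, 26.3 ± 9.25 CPM (SD, n = 4), and healthy cartilage the highest, 47.6 ± 23.0. No difference in Fos passed edgeR's test in any of the 6 comparisons.

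Fosb encodes a FOS subunit that also has a shorter splice form, which these gene totals do not separate (chr1:80214494-80221710, minus strand). It varied more than any other member, from 121 to 7270 counts. Healthy replicates 1 to 4 held 25.5, 8.14, 48.0 and 41.1 CPM. Osteoarthritic replicates held 22.3, 3.09, 5.97 and 11.7 CPM. Both groups spanned several-fold and overlapped. The HA replicates held 2.68, 7.55, 4.63 and 4.75 CPM, all below the lowest healthy library. The coacervate replicates held 31.7, 8.81, 153.2 and 2.45 CPM, so this group contained both the highest and the lowest library of the study. Without replicate 3 the coacervate mean was 14.3 ± 15.4 CPM (SD, n = 3), against 49.0 ± 70.5 (n = 4) with it.

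Fosl1 and Fosl2 encode FRA-1 and FRA-2, FOS proteins without the strong activation domain of FOS. Fosl1 (chr1:220826560-220835066, plus strand) ranged from 0.865 CPM in osteoarthritic replicate 2 to 2.21 CPM in HA replicate 4. That is 35 to 103 counts, so counting error is not small there. Its group means were 1.39 ± 0.325 CPM in healthy, 1.60 ± 0.505 in osteoarthritic, 1.77 ± 0.379 in HA and 1.42 ± 0.468 in coacervate libraries (SD, n = 4 each), and it was not tested. Fosl2 (chr6:25598936-25616995, minus strand) was among the steadiest members. It was measured at 8.48, 8.35, 7.75 and 9.61 CPM in healthy libraries and at 10.6, 6.23, 4.16 and 9.29 CPM in osteoarthritic libraries. The HA libraries had 10.9, 7.97, 8.44 and 5.98 CPM and the coacervate libraries 8.02, 7.99, 10.5 and 7.62 CPM. All groups overlapped, and the lowest value belonged to osteoarthritic replicate 3, one of the libraries that stood apart.

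Among the JUN genes, Jun encodes c-JUN, the main partner of FOS (chr5:114011189-114014277, minus strand). Healthy libraries had 48.8, 38.4, 69.7 and 60.9 CPM, and osteoarthritic libraries 58.8, 40.7, 45.1 and 47.4 CPM. HA libraries had 46.2, 48.3, 43.1 and 38.1 CPM, and coacervate libraries 49.0, 45.5, 108.2 and 30.2 CPM. The groups overlapped throughout. With coacervate replicate 3 the coacervate mean (58.2 ± 34.3 CPM, SD, n = 4) was the highest of the 4 groups, and without it (41.6 ± 10.0, n = 3) the lowest.

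Junb encodes a weaker activator that can oppose c-JUN (chr19:26092974-26094756, minus strand). It stood at 68.6, 39.6, 85.2 and 71.1 CPM in healthy libraries and at 81.7, 68.0, 70.2 and 57.4 CPM in osteoarthritic libraries. It stood at 51.1, 85.0, 56.0 and 50.6 CPM in HA libraries and at 54.9, 37.4, 76.3 and 44.9 CPM in coacervate libraries. The group ranges overlapped, and 1 HA library, replicate 2, lay well above the other 3. Jund encodes a JUN protein that resting cells already contain (chr16:20485029-20486707, minus strand). Its healthy libraries had 75.03, 54.9, 89.1 and 82.0 CPM and its osteoarthritic libraries 64.6, 99.8, 101.1 and 64.3 CPM. Its HA libraries had 53.0, 74.98, 64.0 and 59.8 CPM and its coacervate libraries 63.3, 64.1, 80.9 and 55.0 CPM. In CPM the 2 osteoarthritic libraries that stood apart, replicates 2 and 3, were the 2 highest for Jund. The other 2 osteoarthritic libraries lay inside the range of every other group. This order depended on the scaling, as replicates 2 and 3 had the lowest TMM factors of all libraries, 0.838 and 0.877. In FPKM the osteoarthritic libraries ran from 34.98 to 44.53 (mean 39.1), and the highest Jund value, 48.59, was healthy (mean 39.8).

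Egr1 encodes a zinc-finger factor that binds GC-rich promoter sites (chr18:27657628-27661429, plus strand). Healthy libraries had 120.1, 47.7, 109.8 and 123.3 CPM. Osteoarthritic libraries had 88.9, 31.3, 40.7 and 61.0 CPM. All 4 of the latter lay below the 3 highest healthy libraries. HA libraries had 32.5, 51.7, 48.9 and 33.3 CPM. Coacervate libraries had 76.7, 65.5, 170.9 and 52.9 CPM, each of them above all 4 HA libraries, although the lowest exceeded the highest HA library by little. Healthy replicate 2 was the 1 healthy library inside the HA range. Egr2, a relative best known from nerve and from lymphocytes (chr20:22454463-22459025, minus strand), was much lower, at 104 to 483 counts. Healthy libraries had 4.17, 3.55, 5.73 and 4.54 CPM, and osteoarthritic libraries 10.1, 2.57, 6.23 and 7.86 CPM. HA libraries had 4.91, 8.41, 7.75 and 4.82 CPM, and coacervate libraries 4.14, 4.64, 7.52 and 4.98 CPM. The osteoarthritic group held both the highest and the lowest library for Egr2.

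Atf3 encodes a stress-induced factor that pairs with JUN proteins and often represses (chr13:109817728-109849632, minus strand). Healthy libraries had 12.1, 5.30, 15.0 and 14.1 CPM. Osteoarthritic libraries had 10.9, 7.59, 9.08 and 16.6 CPM, and HA libraries 11.9, 20.7, 7.98 and 6.73 CPM. Coacervate libraries had 12.3, 12, 42.1 and 4.90 CPM, the highest and the lowest of the 16 in the same group.

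Promoter sequence is shown for Egr1, one of the most variable members, for its relative Egr2 and for Jund, one of the steadiest, because the motifs in them differ. The sequences are the 250 bases before the gene start in RefSeq's GRCr8 assembly, a later build than the rn6 of the counts, printed 5′ to 3′ on the gene's strand. In the promoter table used here 7 of the 10 symbols were matched, and Fos, Jun and Atf3 were not. Capitals mark CArG boxes, the binding motif of serum response factor, in Egr1 (chr18:26736828-26737077, plus strand) and Egr2 (chr20:21054442-21054691, minus strand). In Jund (chr16:18769772-18770021, minus strand) they mark a cyclic AMP response element (TGACGTCA) and EGR sites (GCGNGGGCG).
Egr1: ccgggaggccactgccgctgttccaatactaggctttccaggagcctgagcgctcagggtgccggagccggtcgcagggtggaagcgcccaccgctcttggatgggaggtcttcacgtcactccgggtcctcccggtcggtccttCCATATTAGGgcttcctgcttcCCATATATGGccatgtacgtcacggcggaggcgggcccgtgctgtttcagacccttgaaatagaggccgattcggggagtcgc
Egr2: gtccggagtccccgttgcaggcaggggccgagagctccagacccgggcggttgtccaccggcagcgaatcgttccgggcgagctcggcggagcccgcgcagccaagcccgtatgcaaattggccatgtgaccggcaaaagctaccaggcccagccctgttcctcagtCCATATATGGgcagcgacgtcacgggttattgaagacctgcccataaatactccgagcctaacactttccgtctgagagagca
Jund: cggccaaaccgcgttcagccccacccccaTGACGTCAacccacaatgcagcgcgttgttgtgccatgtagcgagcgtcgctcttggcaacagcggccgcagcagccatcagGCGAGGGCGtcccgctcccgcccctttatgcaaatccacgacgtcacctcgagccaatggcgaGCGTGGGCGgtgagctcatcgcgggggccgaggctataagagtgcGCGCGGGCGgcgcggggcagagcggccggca
Egr1 held 2 CArG boxes, CCATATTAGG 105 to 96 bases and CCATATATGG 83 to 74 bases before the start. Egr2 held 1, with the same letters CCATATATGG at the same 83 to 74 bases. A CArG box was present in 2 of the 7 member promoters and in 1.5% of 33465 promoters of the same length, both strands searched. The window of Fosb, the member that varied most, held none. Jund alone of the 7 held the full TGACGTCA (1.59% of all promoters), 221 to 214 bases before its start. The element's first 5 letters, TGACG, which the full element contains, were found in Fosl1, Junb, Jund, Egr1 and Egr2 (18.2% of all). The EGR site occurred in Fosl2 at 1 place and in Jund at 3 (4.29% of all). The AP-1 site TGANTCA was in 0 of 7 windows and in 6.34% of all promoters. These are matches of letters in a short window and describe no binding.

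The members differed widely in how far they varied. Over the 16 libraries the coefficient of variation of CPM was 157% for Fosb, 67.4% for Atf3, 55.6% for Egr1 and 55.5% for Fos. It was 35.5% for Egr2, 35.1% for Jun, 25.0% for Junb, 21.6% for Fosl2 and 21.4% for Jund, and its median over all tested genes was 18.9%. Replicates of the same group also differed widely: edgeR's estimate of the biological coefficient of variation within groups was 82.7% for Fosb, 51.4% for Fos, 51.1% for Atf3 and 37.9% for Egr1. Its median over all tested genes was 18.8%, and Jund, at 19.2%, lay close to that. Fosb and Jund thus stood at opposite ends of the members, with the others between them.

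**Figure D2:**
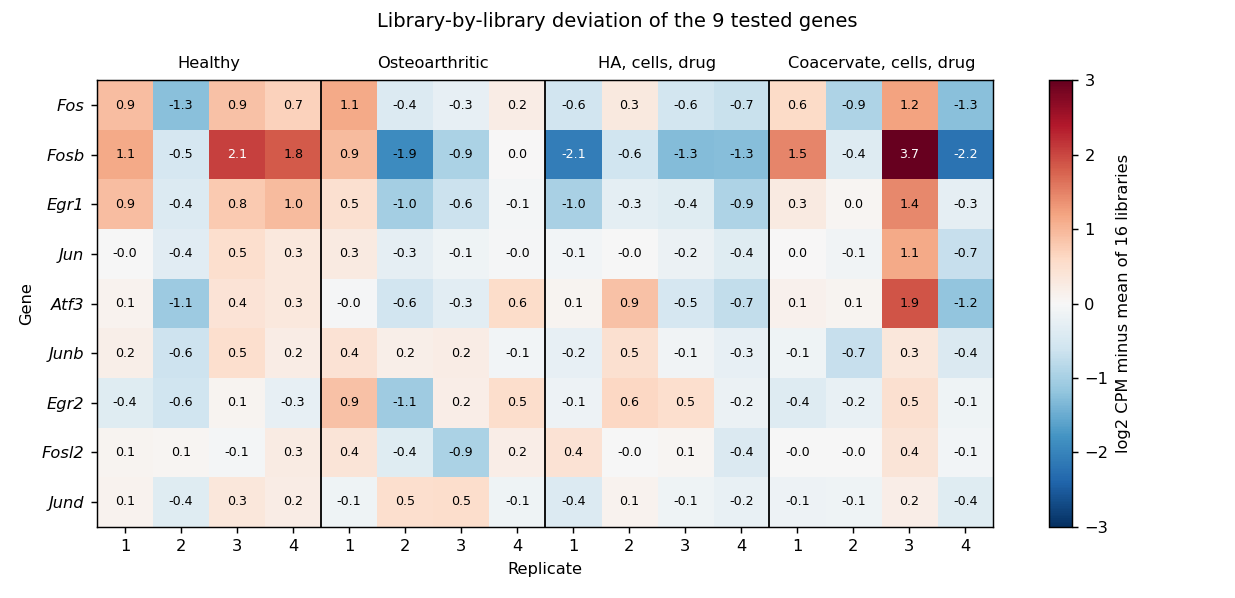
Log2 CPM of the 9 tested genes in each library minus the gene's mean over the 16 libraries, with genes in rows and the replicates of the 4 groups in columns. Coacervate replicate 3 is above the mean for every gene shown, and Fosb spans the widest range.

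The early members moved together from library to library. Coacervate replicate 3 was the highest library of its group for 9 of the 10 genes, all but Fosl1, and coacervate replicate 4 the lowest for 7. Healthy replicate 2 was the lowest healthy library for 9 of 10, all but Fosl2. Osteoarthritic replicate 2 was lowest in its group for 7 and osteoarthritic replicate 1 highest for 7, while HA replicate 2 was highest in its group for 8. Among Fos, Fosb, Jun, Egr1 and Atf3 the 10 pairwise Pearson correlations of log2 CPM over the 16 libraries were 0.64 to 0.93. With the group means taken out they were 0.8 to 0.92, and without coacervate replicate 3 they were 0.47 to 0.9. These 5 genes were set together after their values were seen. The other 26 pairs ran from -0.46 (Fosl2 with Jund) to 0.82 (Fos with Junb). The points of each pair share their library and its depth, so these are descriptions of 16 libraries.

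**Figure D3:**
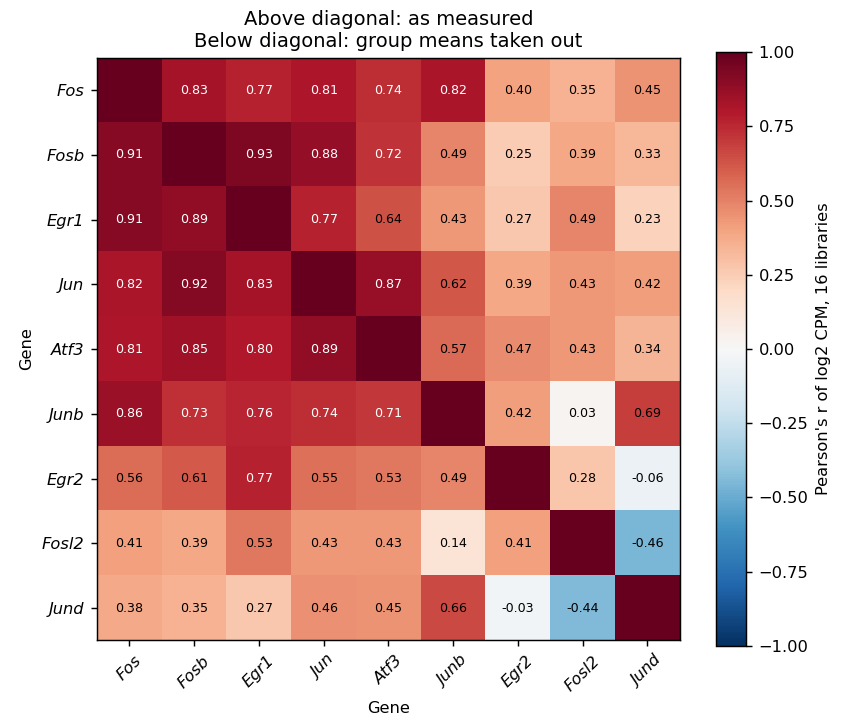
Pearson's r of log2 CPM over 16 libraries for every pair of the 9 tested genes, above the diagonal as measured and below it with the group means taken out. The block formed by Fos, Fosb, Egr1, Jun and Atf3 holds values of 0.64 and above, and Jund and Fosl2 have the lowest value, -0.46.

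Genes outside the list were ranked by their correlation with the mean standardised level of the 9 tested members. The ranking covered 8426 tested genes with a mean FPKM of at least 5, with clone names and placeholder symbols such as LOC and RGD left out. The 10 highest were Abcd3 (r = 0.87), Dusp1 (0.87), Socs3 (0.82), Vegfa (0.82), Bhlhe40 (0.79), Zfp36 (0.77), Rhbdf1 (0.77), Nrbp2 (0.76), Nr4a1 (0.76) and Gadd45g (0.75). Without coacervate replicate 3 the r of these 10 genes was 0.62 (Nr4a1) to 0.85 (Socs3). With the group means taken out the order began with Abcd3 (0.92), Socs3 (0.89), Dusp1 (0.88), Nr4a1 (0.87) and Errfi1 (0.87). Dusp1 ranged from 69.7 to 193.6 CPM within the coacervate group and from 99.3 to 109.5 CPM within the osteoarthritic group. Nr4a1 ranged from 17.4 to 142.7 CPM in the coacervate group and from 18.2 to 24.6 CPM in the HA group. Abcd3 moved over a far smaller range, 28.4 to 44.9 CPM in healthy and coacervate libraries.

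In osteoarthritic against healthy cartilage, 0 of the 9 tested members passed edgeR's test at an adjusted p under 0.05, where 0.502% of all tested genes did. DESeq2 also called 0, and 2.92% of all genes. Egr1 had the smallest p, with a mean of 55.5 ± 25.5 CPM in osteoarthritic and 100.2 ± 35.5 CPM in healthy libraries (SD, n = 4 each), a log2 fold change of -0.85 ± 0.39 (SE, edgeR adjusted p = 0.269). It was the only member with an unadjusted p under 0.05, a level that 17.8% of all genes reached. Fosb gave -1.51 ± 0.92 (adjusted p = 0.388) and Egr2, in the other direction, 0.57 ± 0.33 (adjusted p = 0.367). Fos gave -0.22 ± 0.53 (adjusted p = 0.841), with a 95% confidence interval of -1.35 to 0.92. For Jund, the most precise member, the interval was -0.26 to 0.53. In all, 3 members had a positive and 6 a negative fold change, with a median of -0.18 against 0.01 over all tested genes, and the groups overlapped for every member, while 6.33% of all tested genes had groups that did not overlap. Without osteoarthritic replicates 2 and 3 the difference in Egr1 was -0.42 and that in Fosb -0.85, while Egr2 came to 0.996 (adjusted p = 0.111). Fos, Fosl2 and Atf3 then had positive values (0.23, 0.21 and 0.24) and Jund a negative one (-0.23). These 2 libraries were the lowest osteoarthritic ones for Egr1 and had the highest share of neutrophil markers (7 of 7 detected in every library), 1.61% and 1.11% of counts. The range was 0.656% to 0.816% in healthy, 0.631% to 1.61% in osteoarthritic, 0.845% to 1.04% in HA and 0.462% to 0.65% in coacervate libraries. Osteoarthritic replicates 2 and 3 also had the lowest share of skeletal muscle markers, 0.268% and 0.339% of counts. Of 5 muscle genes tested in this comparison, 4 had a negative and 1 a positive fold change (median -0.53). The part of neutrophils or muscle in the result was not tested.

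**Figure D4:**
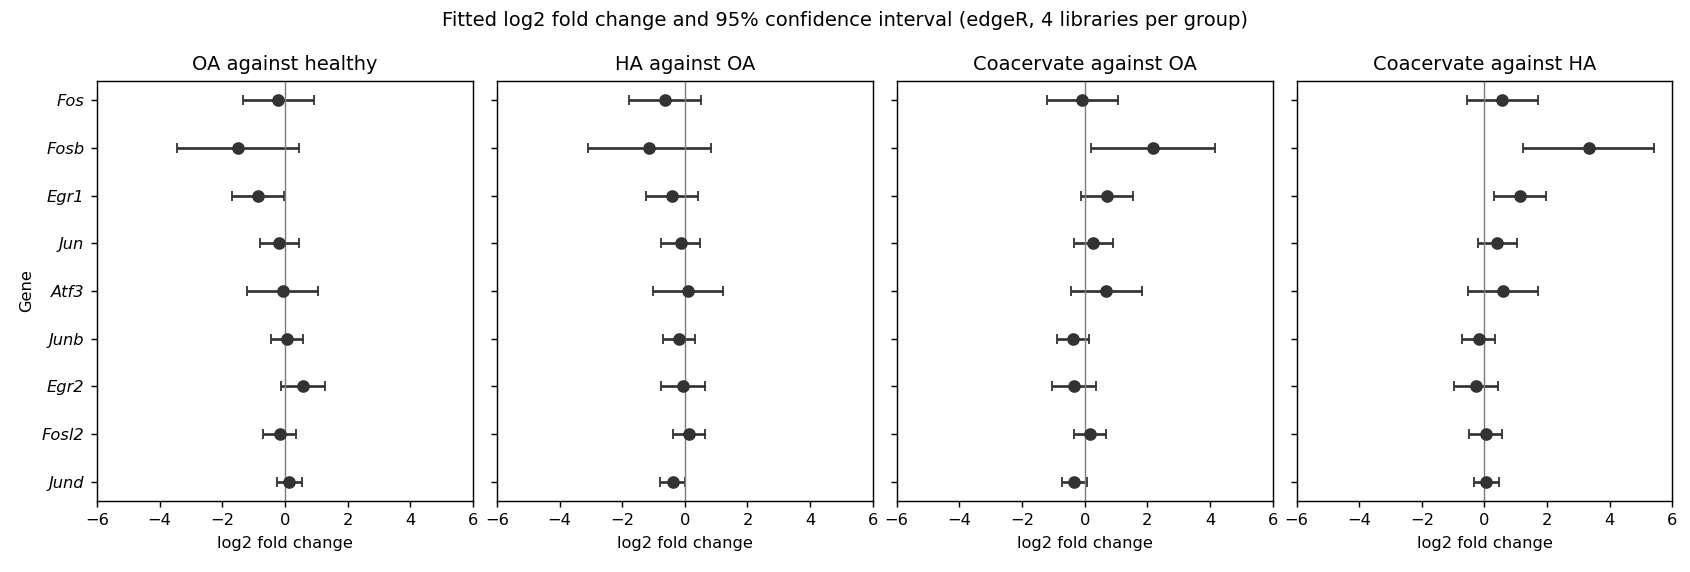
Fitted log2 fold change (horizontal axis, edgeR) of the 9 tested genes in 4 comparisons, as points with 95% confidence intervals from 4 libraries per group. Intervals are widest for Fosb and narrowest for Jund. Before adjustment for the number of genes tested, the Fosb and Egr1 intervals lie above 0 for the coacervate against the HA group. So does that of Fosb for the coacervate against the osteoarthritic group, and that of Egr1 lies below 0 for osteoarthritic against healthy.

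Genes around AP-1 and EGR were read in the same comparison from 7 lists, described by their counts. The lists were chosen with earlier results of these data known, so the counts describe them and do not test them. Of all tested genes, 0.391% rose and 0.112% fell past the threshold, and 52.1% had a positive fold change. Among other immediate early genes, 2 of 26 tested fell and 0 rose, with a list median of -0.01. They were Sik1, a salt-inducible kinase, from 71.5 ± 21.1 to 33.2 ± 5.61 CPM (log2 fold change -1.10 ± 0.23, adjusted p = 0.0466), and Csrnp1, a nuclear factor induced by AXIN1, from 28.9 ± 0.909 to 19.9 ± 2.76 CPM (-0.54 ± 0.11, adjusted p = 0.0466). Among genes described as AP-1 targets, 3 of 23 rose and 0 fell, with a list median of 0.31. They were Mmp3, stromelysin-1, from 5.85 ± 1.04 to 65.8 ± 50.6 CPM (3.49 ± 0.65, adjusted p = 0.029), Mmp10, stromelysin-2, from 1.23 ± 0.266 to 11.1 ± 8.08 CPM (3.17 ± 0.67, adjusted p = 0.0498), and Ccl2, a monocyte chemoattractant, from 4.16 ± 2.59 to 19.9 ± 9.83 CPM (2.26 ± 0.47, adjusted p = 0.0466). No gene passed among 19 other bZIP partners, 9 EGR relatives and co-repressors, 17 upstream kinases and serum response factors, 17 feedback phosphatases and mRNA decay factors, or 10 heat shock genes. In the feedback list 14 of 17 had a negative fold change (median -0.23), led by Spry4 (-0.63, adjusted p = 0.155) and Zfp36l2 (-0.40, adjusted p = 0.16), which had -0.52 and -0.24 without osteoarthritic replicates 2 and 3. Hspa1b, an inducible HSP70, had 13.9 ± 4.89 CPM in osteoarthritic and 44.8 ± 23.4 in healthy libraries (-1.69 ± 0.72, adjusted p = 0.248), and -1.33 (adjusted p = 0.514) without osteoarthritic replicates 2 and 3. The calls were few and hung on single libraries: with 1 library left out at a time the immediate early count was 0 to 5 and the target count 0 to 6. The immediate early count was 0 without any of healthy replicates 1, 3 and 4, osteoarthritic replicates 2, 3 and 4, the HA replicates 1 to 4 or coacervate replicates 1 and 2, 1 without healthy replicate 2, 3 without coacervate replicate 3 or 4, and 5 without osteoarthritic replicate 1. The target count was 0 without healthy replicate 2, healthy replicate 3 or osteoarthritic replicate 4, 1 without healthy replicates 1 or 4, osteoarthritic replicate 3, HA replicates 1 or 3 or coacervate replicates 1 or 2, and 6 without osteoarthritic replicate 1. Without osteoarthritic replicates 2 and 3 together the counts were 0 and 5. Sik1 then had -0.93 (adjusted p = 0.149) and Csrnp1 -0.49 (adjusted p = 0.103), and Mmp3, Mmp10 and Ccl2 still passed, at 4.08, 3.78 and 2.71.

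For the HA group against osteoarthritic cartilage, 0 of 9 members passed, and 0% of all tested genes did (edgeR; 6.34% had an unadjusted p under 0.05, and 0 members). DESeq2 called 0 members as well, and 0.0559% of all genes. Jund came nearest, with 63.0 ± 9.20 CPM in HA and 82.5 ± 20.8 in osteoarthritic libraries (-0.39 ± 0.19, adjusted p = 0.745). Without osteoarthritic replicates 2 and 3, its 2 highest libraries in CPM, the value was -0.03. Fosb gave -1.14 ± 0.93 (adjusted p = 0.789), Fos -0.64 ± 0.54 (adjusted p = 0.791) and Egr1 -0.42 ± 0.39 (adjusted p = 0.808). These values moved with the osteoarthritic libraries. Without replicate 1, the highest osteoarthritic library for all 3 genes, Fosb came to -0.51, Fos to -0.21 and Egr1 to -0.10. Without replicates 2 and 3, Fosb came to -1.80 (adjusted p = 0.528), Fos to -1.09 (adjusted p = 0.519) and Egr1 to -0.85 (adjusted p = 0.462), and all 9 members were negative. The confidence interval for Fosb, -3.10 to 0.83, left room for a large difference. The groups overlapped for every member (1.9% of all tested genes had groups that did not), and 2 members had a positive and 7 a negative fold change. No gene of the 7 lists passed. Csrnp1 had 26.3 ± 1.44 CPM in HA and 19.9 ± 2.76 in osteoarthritic libraries (0.40 ± 0.11, adjusted p = 0.745), and Ccn1, a secreted matrix protein induced early, 37.6 ± 5.57 and 65.2 ± 13.3 (-0.79 ± 0.28, adjusted p = 0.745). They had 0.35 and -0.74 without osteoarthritic replicates 2 and 3.

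For the coacervate group against osteoarthritic cartilage, 0 of 9 members passed edgeR's test, where 0.146% of all tested genes did, and DESeq2 called 0, against 5.91% of all genes. Fosb had the smallest p (2.19 ± 0.93, adjusted p = 0.201), with 49.0 ± 70.5 CPM in coacervate and 10.8 ± 8.47 in osteoarthritic libraries (SD, n = 4 each). It was the only member with an unadjusted p under 0.05, as were 21.8% of all genes. Egr1 gave 0.72 ± 0.39 (adjusted p = 0.282) and Atf3 0.69 ± 0.53 (adjusted p = 0.44). Junb and Jund had values in the other direction, -0.38 ± 0.25 (adjusted p = 0.361) and -0.32 ± 0.19 (adjusted p = 0.307). Without coacervate replicate 3, Fosb came to 0.41 (adjusted p = 0.799) and Egr1 to 0.23 (adjusted p = 0.751), and Jun and Atf3 turned from 0.28 and 0.69 to -0.21 and -0.18. Without osteoarthritic replicates 2 and 3, Fosb came to 1.52 (adjusted p = 0.593) and Egr1 to 0.28. The groups overlapped for every member, while 5.6% of all tested genes had groups that did not. No gene of the 7 lists passed. Per1, a clock gene that also responds early, had 89.0 ± 50.9 and 35.9 ± 11.3 CPM (1.31 ± 0.37, adjusted p = 0.113), Hspa1b 61.7 ± 81.3 and 13.9 ± 4.89 (2.15 ± 0.73, adjusted p = 0.142), and Ccl2 3.79 ± 1.96 and 19.9 ± 9.83 (-2.40 ± 0.47, adjusted p = 0.0635). Without coacervate replicate 3 the coacervate mean of Per1 was 67.5 ± 33.3 CPM (SD, n = 3; 0.91, adjusted p = 0.279) and that of Hspa1b 21.4 ± 11.6 CPM (0.62, adjusted p = 0.531). Ccl2 came to -2.76 (adjusted p = 0.107). Without osteoarthritic replicates 2 and 3, Per1, Hspa1b and Ccl2 came to 1.003, 1.79 and -2.84, and none passed.

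The 2 treated groups, labelled with hyaluronic acid and with a coacervate, were set against each other. The titles do not state that cells, drug and doses were the same in both. The Fosb mean was 49.0 ± 70.5 CPM in the coacervate and 4.90 ± 2.00 in the HA group, a 9.99-fold difference (3.32 ± 0.98, 95% confidence interval 1.23 to 5.41), which did not pass edgeR's test (adjusted p = 0.194). Egr1 was 91.5 ± 53.8 against 41.6 ± 10.1 CPM, 2.198-fold (1.14 ± 0.39, adjusted p = 0.28). In all 0 of 9 members passed, as did 0% of all tested genes. The unadjusted p was under 0.05 for 2 of 9 members, Fosb and Egr1, and for 10.4% of all genes. DESeq2 called 1 member, Fosb (3.33, adjusted p = 0.0291), in a comparison where it called 2.31% of all genes and edgeR called 0. Egr1 was the 1 member whose groups did not overlap, a state that 9.71% of all tested genes shared. The difference rested largely on coacervate replicate 3. Without it Fosb was 2.92-fold (1.55, adjusted p = 0.696) and Egr1 1.56-fold (0.64, adjusted p = 0.737). Jun, Jund, Fosl2 and Atf3 then had negative values (-0.08, -0.05, -0.08 and -0.28), so that 3 members were positive and 6 negative, against 7 and 2 with it.

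Skeletal muscle markers were also highest in coacervate replicate 3. All 5 muscle genes matched in the table had counts in all 16 libraries, and none was at 0. Their summed share was 0.53% to 0.801% of counts in healthy, 0.268% to 0.56% in osteoarthritic, 0.356% to 0.421% in HA and 0.508% to 1.77% in coacervate libraries. Coacervate replicate 3, highest in Fosb and Egr1, had the 1.77%. Without it the coacervate range was 0.508% to 0.878%, still above the HA range. In coacervate against HA all 5 muscle genes had a positive fold change (median 1.26). Each had an unadjusted p under 0.05 (edgeR), a level that 10.4% of all genes reached. Whether muscle in the samples has a part in the levels of Fosb and Egr1 was not tested.

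**Figure D5:**
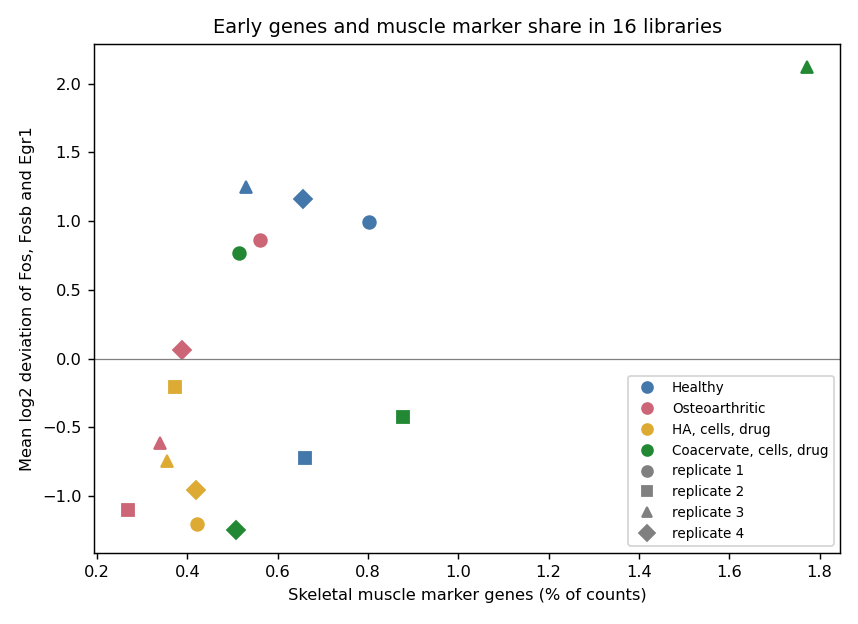
Skeletal muscle marker genes as a percentage of counts (horizontal axis) and the mean log2 deviation of Fos, Fosb and Egr1 from their means over the 16 libraries (vertical axis), 1 point per library. Coacervate replicate 3 lies alone at 1.77% and 2.12, and the other libraries spread from -1.25 to 1.25 at 0.878% muscle markers or less.

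In the lists around them, no gene passed between the coacervate and the HA group. Nr4a1, an orphan nuclear receptor induced early, had 61.4 ± 55.5 CPM in coacervate and 21.1 ± 2.79 in HA libraries (1.54 ± 0.48, adjusted p = 0.216). Per1 had 89.0 ± 50.9 and 34.7 ± 11.2 CPM (1.36 ± 0.37, adjusted p = 0.176). Without coacervate replicate 3 the coacervate mean of Nr4a1 was 34.4 ± 14.7 CPM (SD, n = 3; 0.71, adjusted p = 0.696), and Per1 came to 0.96 (adjusted p = 0.54). Of the 23 AP-1 target genes tested, 18 had a negative and 5 a positive fold change (median -0.33). Over all tested genes 49.7% were positive, with a median of -0.0015. All 7 neutrophil markers had a negative fold change in this comparison (median -0.61), and their part in the target values was not tested. Ccl2 had 3.79 ± 1.96 CPM in coacervate and 16.9 ± 5.44 in HA libraries (-2.15 ± 0.47, adjusted p = 0.138), and Spp1, osteopontin, 905.1 ± 264.0 and 1889 ± 769.5 CPM (-1.06 ± 0.24, adjusted p = 0.138), with no overlap for either. Without coacervate replicate 3 they came to -2.52 and -0.90 (adjusted p = 0.297 and 0.374).

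The treated groups were also set against healthy cartilage. In the HA group, 0 of 9 members passed edgeR's test, where 0.16% of all tested genes did, and DESeq2 called 0, against 1.11% of all genes. Egr1 gave -1.27 ± 0.39 (adjusted p = 0.313; 41.6 ± 10.1 against 100.2 ± 35.5 CPM) and Fosb -2.64 ± 0.96 (adjusted p = 0.442; 4.90 ± 2.00 against 30.7 ± 17.7 CPM). Both had an unadjusted p under 0.05, as did 8.25% of all genes. In Fosb the 4 HA libraries lay below the 4 healthy libraries, and 9.83% of all tested genes had groups apart in one direction or the other. When the fit held only these 2 groups, both passed (Fosb -2.64, adjusted p = 0.0209; Egr1 -1.27, adjusted p = 0.0374), the spread then being taken from their libraries alone. Under that fit 2.72% of all tested genes passed, 390 in place of 23. Skeletal muscle markers also differed in this comparison: all 5 had a negative fold change (median -0.75, 3 with an unadjusted p under 0.05), and their share of counts, 0.356% to 0.421% in HA and 0.53% to 0.801% in healthy libraries, did not overlap. Their part in the result was not tested. The 4 HA libraries were closer together than those of any other group in Fosb, Egr1 and Jun, where the highest exceeded the lowest 2.81-fold, 1.59-fold and 1.27-fold. For Atf3 the difference was 0.03 ± 0.53 and for Jund -0.26 ± 0.19.

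The 23 AP-1 targets tested gave 1 call in this comparison, where 0.146% of all tested genes were called higher. It was Mmp3, which rose from 5.85 ± 1.04 to 66.9 ± 52.9 CPM (3.51 ± 0.65, adjusted p = 0.0453). Mmp12, macrophage elastase, had 31.4 ± 22.3 and 2.55 ± 2.71 CPM (3.62 ± 0.69, adjusted p = 0.0542). The call on Mmp3 was lost when any of healthy replicates 2, 3 or 4, osteoarthritic replicates 1 or 3, HA replicates 1, 2 or 3, or coacervate replicates 1 or 2 was left out. The target count was 2 without osteoarthritic replicate 2 or coacervate replicate 3 and 3 without osteoarthritic or HA replicate 4. Sik1 had 35.8 ± 5.31 and 71.5 ± 21.1 CPM (-0.997 ± 0.23, adjusted p = 0.11), and Cebpb, a bZIP factor of inflammation, 3.17 ± 1.41 and 10.3 ± 4.12 CPM (-1.70 ± 0.40, adjusted p = 0.119).

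For the coacervate group against healthy cartilage, 0 of 9 members passed, as did 0% of all tested genes (edgeR; 3.85% had an unadjusted p under 0.05, and 0 members), and DESeq2 called 0 members, against 0.126% of all genes. Egr1 gave -0.13 ± 0.39 with a confidence interval of -0.95 to 0.69, and Fosb 0.68 ± 0.89 with an interval of -1.22 to 2.58. Without coacervate replicate 3 the Fosb value was -1.10, and that of Egr1 -0.62. Of the 9 members 4 were positive and 5 negative with that library, and 1 positive and 8 negative without it. No member had groups that did not overlap, against 3.66% of all tested genes. The intervals were too wide to show that coacervate and healthy libraries were alike. No gene of the 7 lists passed, and Jdp2, a bZIP partner that represses AP-1, had 27.5 ± 2.09 and 36.6 ± 5.05 CPM (-0.41 ± 0.12, adjusted p = 0.9998), and -0.39 without coacervate replicate 3.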

How the data were processed

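Counts and FPKM values of 23552 genes in 16 libraries were taken from 1 deposited table, which held 0 columns without a sample. Per the file headers it gives, for each library, a count and an FPKM, and the counts as deposited by the authors are whole numbers with differing totals, so they were not normalised. FPKM, by its definition, corrects for gene length and depth, and the file headers do not state how the authors computed it. Per the labels' protocols, poly(A) RNA was sequenced from both ends after dUTP marking of the second strand. Per the submitters' processing notes, the read tools were cutadapt (1.9), HISAT2 (2.2.1) and StringTie (2.1.6), the packages edgeR and DESeq2, and the genome build rn6; the counting tool, annotation version and strand setting are not given in the sources used here, so reads of overlapping or near-identical genes may be shared. Counts of 2 (6480 values) outnumbered counts of 3 (4576), so mates look counted separately and counts overstate the fragments. Amplified fragments carried no molecular identifiers.

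Genes with an FPKM of 1 or more in 4 or more libraries were tested (14337). Libraries were scaled with TMM, and edgeR's quasi-likelihood test used 1 fit of the 4 group means for 6 comparisons, which share control libraries, with p-values adjusted over all tested genes by the method of Benjamini and Hochberg (threshold 0.05). CPM uses the effective library size, and log2 CPM adds 2 as prior count. Software was edgeR 4.0.16 and DESeq2 1.42.0 in R 4.3.3, with python 3.11.15. The procedure was tested on simulated data for osteoarthritic against healthy (14337 genes, 200 changed). It found 22.2% of the genes changed 1.5-fold, 72.4% at 2-fold and 93.4% at 4-fold, and 3.31% of its calls were false. Each gene was simulated independently, so no simulated library stood apart as osteoarthritic replicates 2 and 3 did. The share of false calls therefore need not hold for the measured libraries. The changed genes were drawn at random from all tested genes, whose median biological coefficient of variation was 18.8%. The rates do not carry over to members that vary more, such as Fosb (82.7%), Fos (51.4%), Atf3 (51.1%) and Egr1 (37.9%).

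The members and the gene lists were chosen with earlier results of these data known. Named genes were the 10 members, in each list up to 5 genes past the threshold or, where fewer than 2 passed, the 2 with the smallest p (not all are printed), and the 10 genes most correlated with the members' mean; Dusp1, Nr4a1, Abcd3, Hspa1b, Per1 and Spp1 serve as examples of these. The markers were 10 chondrocyte, 7 erythroid (6 matched), 7 neutrophil and 7 skeletal muscle genes (5 matched). Macrophage, B cell, osteoblast and endothelial markers took 0.067% to 0.115%, 0.021% to 0.056%, 0.622% to 1.78% and 0.0176% to 0.0427% of counts. Alternatives were DESeq2's size factors, no filter, DESeq2's Wald test, fits of 2 groups only, a replicate block and leaving out libraries; counts of the gene lists under these, and values of named list genes without the libraries that stood apart, were added after seeing the data.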

Additional observations from a re-analysis of the deposited data

Results flagged for a closer look

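In 3 cases a library lay far from the other 3 of its group, by a gap whose share of the group's whole range was above Dixon's 95% critical value for 4 samples. Fos in HA replicate 2 was 40.1 CPM (share of the range 0.916), Junb in the same library was 85.0 CPM (0.843), and Fosl2 in coacervate replicate 3 was 10.5 CPM (0.862). HA replicate 2 was also the highest HA library for Fosb, Jun, Jund, Egr1, Egr2 and Atf3. Chance alone marks about 1 in 20 groups, and 40 were examined (10 genes in 4 groups).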

How the results depend on the processing

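Of 54 member fold changes under 22 alternatives (1188 values), 1134 kept their direction and their side of the threshold, 51 reversed, 3 passed the threshold that they had missed and 0 lost a call, since none had one. The cause of the reversals was not tested. Many alternatives left out only a library of neither compared group. Such a step can hardly move a fold change, so the 1134 values overstate how stable the directions were. The number of members called was 0 in every comparison and became 1 with DESeq2's Wald test for coacervate against HA (Fosb) and 2 with a fit of only HA and healthy libraries (Fosb and Egr1). With any 1 library left out it stayed 0 to 0 in each comparison. Every reversed value belonged to a difference that had not passed. Without osteoarthritic replicates 2 and 3 together, osteoarthritic against healthy gave Fos 0.23, Fosl2 0.21, Jund -0.23 and Atf3 0.24, HA against osteoarthritic gave Fosl2 -0.25 and Atf3 -0.21, and coacervate against osteoarthritic gave Fosl2 -0.22 and Jund 0.032. With 1 library left out at a time, the other differences that changed direction had these lowest and highest log2 values. In osteoarthritic against healthy, the ranges were Fosl2 -0.38 to 0.035, Junb -0.10 to 0.23 and Atf3 -0.32 to 0.087. In HA against osteoarthritic, the ranges were Fosl2 -0.071 to 0.33, Egr2 -0.33 to 0.21 and Atf3 -0.32 to 0.34. In coacervate against osteoarthritic, the ranges were Fos -0.62 to 0.35, Fosl2 -0.037 to 0.37, Jun -0.21 to 0.49 and Atf3 -0.18 to 1.001. In coacervate against HA, the ranges were Fosl2 -0.094 to 0.20, Jun -0.079 to 0.62, Junb -0.41 to 0.022, Jund -0.050 to 0.16 and Atf3 -0.28 to 1.01. In HA against healthy, the ranges were Fosl2 -0.20 to 0.091, Junb -0.33 to 0.019 and Atf3 -0.39 to 0.22. In coacervate against healthy, the ranges were Fosb -1.10 to 1.07, Fosl2 -0.12 to 0.058, Jun -0.39 to 0.31, Egr1 -0.62 to 0.058 and Atf3 -0.25 to 0.93.

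With the replicate number as a block, 0 members were called in any comparison, and 1 fold change reversed (Fosl2, coacervate against healthy, 0.0071). Same-numbered libraries did not deviate together (24 pairs, r from -0.39 to 0.21, 4 above 0.1), and 1 library correlated best with its own number, so the numbers give no pairing. Over all genes the block moved the calls from 72 to 26 for osteoarthritic against healthy, from 21 to 0 for coacervate against osteoarthritic and from 23 to 0 for HA against healthy. DESeq2 called 418, 797 and 159 genes there, and 325 for coacervate against HA, where edgeR called 0. At 35 to 103 counts for Fosl1, counting error limits what can be seen, and for Fosb and Atf3 the spread between libraries does.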
